A study of Mus musculus with 16 samples.

Results

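Nat8f5, Slc23a1 and Mmab are 3 of the 55401 genes in the deposited count table of mouse liver RNA, picked because they stood higher in the livers that recovered for 4 weeks with choline than in those that recovered for 4 weeks without it. Each symbol matched 1 row, and all 3 were among the 17292 genes that passed the filter on low counts. In the 16 libraries, all from the liver of wild-type mice, thioacetamide (TAA, a compound that the liver converts into a toxin and that is used to make fibrosis) was given in drinking water at 300 mg/L for 8 weeks, and recovery followed for 1, 2 or 4 weeks, either without further treatment or with 3.5 g/L choline chloride. The labels state no age, sex or substrain. The 8 groups of 2 libraries were an untreated control, the end of TAA, and 6 recovery groups, choline or none at 3 times. The labels do not tell whether libraries of 1 group are from different animals; every p-value therefore reflects the spread among these libraries alone, which may be technical.

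The 3 genes work in separate corners of hepatocyte metabolism. Slc23a1 encodes the sodium-coupled transporter SVCT1, which carries ascorbate (vitamin C) into epithelial cells and hepatocytes; mice, unlike humans, also make ascorbate in the liver, with Gulo as the last enzyme. Mmab encodes the mitochondrial enzyme that converts vitamin B12 into adenosylcobalamin, the cofactor with which methylmalonyl-CoA mutase (Mmut) takes the products of propionate breakdown into the citric acid cycle. Nat8f5 belongs to a family of membrane-bound acetyltransferases clustered on mouse chromosome 6; its best-studied relative, human NAT8, acetylates cysteine conjugates, the last step in the making of mercapturates, a form in which foreign compounds leave the body. None of the 3 proteins is an enzyme of lipid synthesis, but Mmab lies head to head with Mvk, the mevalonate kinase of cholesterol synthesis, and in human cells the region between these genes responds to SREBP-2, the transcription factor that switches on sterol synthesis.

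Positions are those of the deposited table on GRCm38, and the genes are annotated as protein-coding on the minus strand. Mmab (ENSMUSG00000029575) spans chromosome 5, 114431034 to 114444060, and Mvk starts 233 bases further on, on the plus strand. Nat8f5 (ENSMUSG00000079494) spans chromosome 6, 85817218 to 85820972. The window below shows the stretch that Mmab and Mvk share. It is taken from RefSeq (GRCm38.p6, chr5:114443978-114444277, minus strand) and has in capitals each CCAAT, or its reverse complement ATTGG. It reads 5′ to 3′ along Mmab from 250 bases before its RefSeq start to 50 after. That start differs from the one in the deposited positions, from which the 233 bases to Mvk are counted.

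Mmab: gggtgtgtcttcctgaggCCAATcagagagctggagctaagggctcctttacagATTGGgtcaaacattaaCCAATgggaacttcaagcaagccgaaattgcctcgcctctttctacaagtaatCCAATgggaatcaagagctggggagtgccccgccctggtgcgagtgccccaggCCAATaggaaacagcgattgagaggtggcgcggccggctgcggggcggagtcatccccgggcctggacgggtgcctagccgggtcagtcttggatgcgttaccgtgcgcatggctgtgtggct

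The Mmab window held 5 CCAAT matches over both strands, the box bound by the factor NF-Y. Their first bases lay at -232, -196, -179, -126 and -73 from the RefSeq start. Of 32817 RefSeq promoter windows of 300 bases, 37.4% held a CCAAT and 0.271% held 5 or more. Of these bases 259 also lie in the promoter window of Mvk, which held 5 matches too. The sterol response element TCACNCCAC (in 1.24% of windows, both strands) and the E-box CACGTG (in 7.15%) had no match in the Mmab window. The Nat8f5 window held 1 CCAAT and neither of the other motifs. The motifs do not overlap one another in these windows, and a match is only a run of letters.

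Levels are given as CPM, counts scaled to a common library size after TMM normalisation, which compare 1 gene between libraries; TPM, the authors' values per transcript length, serve to compare genes. By TPM, Nat8f5 had a mean of 16 over the 16 libraries, Slc23a1 of 8 and Mmab of 4.2. The genes were well counted, with 137.9 to 897.24 expected counts per library for Nat8f5, 345 to 1475 for Slc23a1 and 199 to 703 for Mmab. Library totals were 23.1 to 33.6 Mcounts. Liver identity held in all libraries, with the 8 hepatocyte markers at a sum of 65720 to 94430 CPM. Control replicate 1 and TAA replicate 1 stood apart, with the nuclear RNA Malat1 at 146 and 1019 CPM against 5230 to 6799 CPM in the other 14. The liver was sequenced in bulk, so fewer cells of a type and less RNA per cell cannot be told apart.

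**Figure D1:**
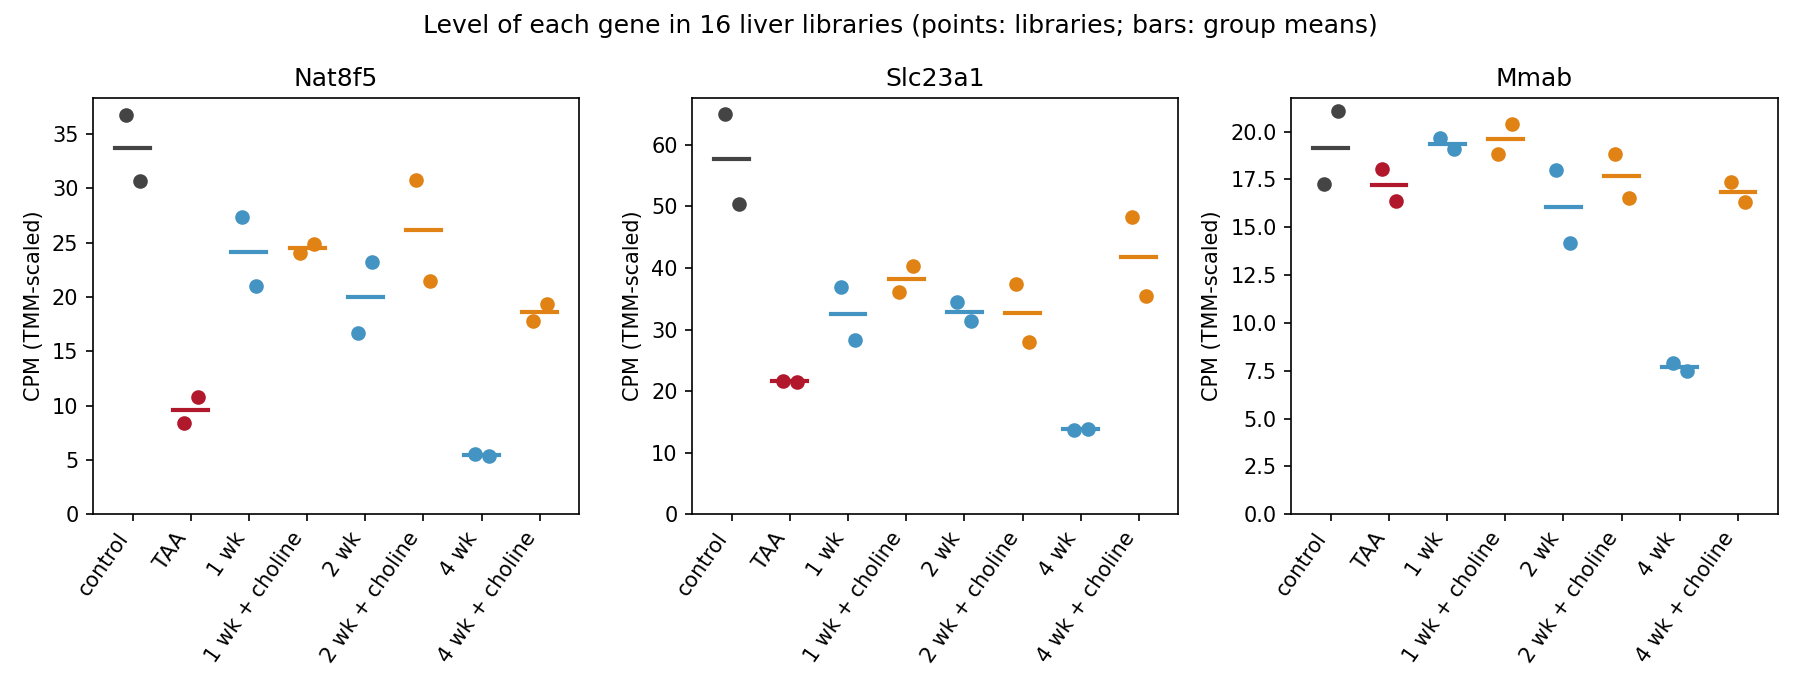
Level of Nat8f5, Slc23a1 and Mmab (CPM, linear axes from 0) in each of the 16 libraries, grouped by treatment; points are libraries and bars are means of 2. In each panel both libraries of recovery for 4 weeks without choline lie below the other 14 libraries, and those with choline for 4 weeks lie within the range of the other 12, for Slc23a1 with 1 library (48.4 CPM) above the other recovery groups.

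The values that chose the genes are those at 4 weeks, and they are given as a description with no test. Nat8f5 stood at 5.50 and 5.36 CPM without choline and at 17.8 and 19.4 CPM with it, a ratio of means of 3.43. Slc23a1 stood at 13.7 and 13.8 CPM without choline and at 48.4 and 35.4 CPM with it, a ratio of 3.04. Mmab stood at 7.93 and 7.46 CPM without choline and at 17.4 and 16.3 CPM with it, a ratio of 2.19. In TPM the ratios were 3.15, 2.68 and 1.78 in the same order.

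The group that stood apart from the rest at 4 weeks was the one without choline. For Mmab, the highest of its libraries (7.93 CPM) lay below the lowest of the other 14 (14.2 CPM). For Slc23a1 these values were 13.8 and 21.5 CPM, and for Nat8f5 5.50 and 8.40 CPM. Both libraries of this group lay below the other 14 in 5.09% of all genes tested (881) and above them in 4.54%; the choice of the 3 genes used these libraries, so nothing is read from their count. Relative to the control mean, recovery for 4 weeks without choline stood at 16.1% for Nat8f5, 23.9% for Slc23a1 and 40.2% for Mmab, and recovery with choline at 55.2%, 72.5% and 88.0%.

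At the end of TAA, the ascorbate transporter and the acetyltransferase had fallen and the cobalamin enzyme had not passed the test. Nat8f5 stood at 36.8 and 30.7 CPM in control and at 8.40 and 10.8 CPM after TAA. It was 3.52-fold lower (log2 -1.81, SE 0.23, 2 libraries a group, edgeR quasi-likelihood test, Benjamini-Hochberg adjusted p = 0.000462; later errors are SE unless named). Slc23a1 stood at 65.1 and 50.5 CPM in control and at 21.6 and 21.5 CPM after TAA, 2.68-fold lower (log2 -1.42 ± 0.21, edgeR adjusted p = 0.000995). The groups did not overlap for either gene, though the share of all genes whose groups lie apart was not counted. Mmab stood at 17.2 and 21.1 CPM in control and at 18.1 and 16.4 CPM after TAA, so its groups overlapped (log2 -0.15 ± 0.16, 95% interval -0.50 to 0.19, edgeR adjusted p = 0.525). Thus 2 of the 3 genes were called lower, against 11% of all genes called lower, 10% higher and 21% in either direction. Without both libraries low in Malat1, leaving 1 library a group whose spread is taken from the other groups, Nat8f5 was at log2 -1.51 ± 0.28 (edgeR adjusted p = 0.00579), Slc23a1 at -1.23 ± 0.26 (0.0104) and Mmab at -0.37 ± 0.17 (0.176). In a fit of these 2 groups alone, both calls ended, with adjusted p of 0.126 for Nat8f5 and 0.155 for Slc23a1. By the deposited TPM the falls were smaller, log2 -0.84 for Nat8f5 and -0.43 for Slc23a1, and Mmab turned to a higher value after TAA, 0.79; 7SL RNA genes took 60.5% and 56.7% of the TPM of the control libraries and 37.8% and 50.6% after TAA, and with them removed and the TPM rescaled the values were -1.25, -0.85 and 0.37.

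Recovery without choline brought Nat8f5 up within a week. It stood at 27.3 and 21.03 CPM at 1 week and at 16.7 and 23.3 CPM at 2 weeks, above both TAA libraries each time. Against TAA it was 2.52-fold higher at 1 week (log2 1.33 ± 0.22, edgeR adjusted p = 0.0115) and 2.08-fold higher at 2 weeks (1.06 ± 0.22, edgeR adjusted p = 0.0123). The call at 1 week ended without TAA replicate 1 (log2 1.19, edgeR adjusted p = 0.0891) or recovery replicate 1 (1.13, edgeR adjusted p = 0.151), and the call at 2 weeks without TAA replicate 1 (0.92, edgeR adjusted p = 0.0928) or recovery replicate 2 (0.80, edgeR adjusted p = 0.125). Fits of the compared groups alone ended both (adjusted p = 0.087 and 0.0527).

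Slc23a1 stood at 36.9 and 28.2 CPM after 1 week without choline and at 34.4 and 31.3 CPM after 2 weeks. All 4 values lay above TAA, but neither time passed the test (log2 0.59 ± 0.20, edgeR adjusted p = 0.134 at 1 week; 0.61 ± 0.20, edgeR adjusted p = 0.0789 at 2 weeks). At 2 weeks DESeq2 called it (adjusted p = 0.0346), and so did a fit of the compared groups alone (0.0434). Leaving out control replicate 1 or 2, which are outside the contrast, gave edgeR adjusted p of 0.0391 and 0.0367 at 1 week and of 0.0249 and 0.024 at 2 weeks. Mmab stood at 19.7 and 19.1 CPM at 1 week and at 17.99 and 14.2 CPM at 2 weeks. Its differences from TAA were log2 0.17 ± 0.16 and -0.10 ± 0.16 (edgeR adjusted p = 0.586 and 0.721). One of the 3 genes was thus called higher at each time, against 1.97% of all genes at 1 week (1.78% lower, 3.75% in either direction) and 5.13% at 2 weeks (5.88% lower, 11% in either direction).

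Against untreated liver, none of the 3 genes passed the edgeR test after 2 weeks without choline, when 0.399% of all genes did (69 genes; 4377 at an unadjusted p under 0.05, and 1517 adjusted by DESeq2). Nat8f5 was at log2 -0.76 ± 0.22 (edgeR adjusted p = 0.101), Slc23a1 at -0.81 ± 0.20 (0.0874) and Mmab at -0.25 ± 0.16 (0.318). The 2-week and control libraries did not overlap for Nat8f5 and Slc23a1. The share of all genes whose groups lie apart in this comparison was not counted, so nothing is read from it. DESeq2 called Nat8f5 (adjusted p = 0.0352) and Slc23a1 (0.0127), as did edgeR without the filter on low counts (0.0175 and 0.00528). Without control replicate 2, edgeR called Nat8f5 (log2 -0.88, adjusted p = 0.0105) and Slc23a1 (-0.99, adjusted p = 0.00222).

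**Figure D2:**
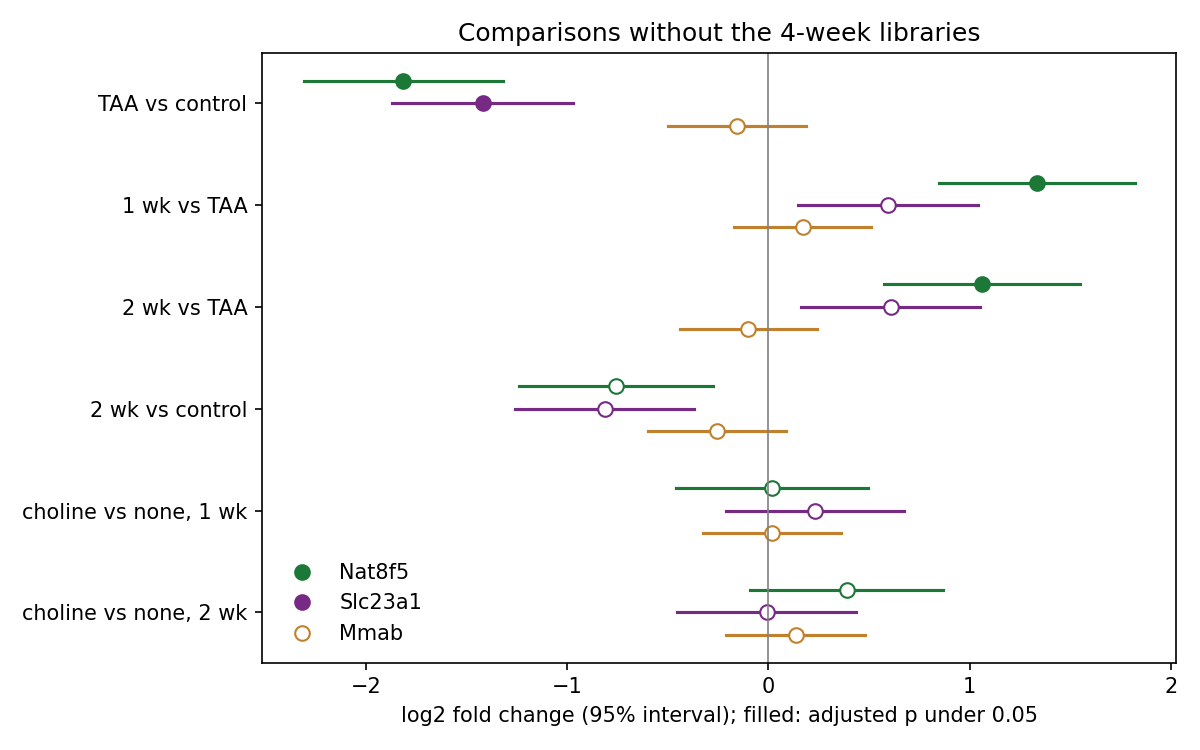
Log2 fold changes of the 3 genes in the 6 comparisons of 2 groups that use no 4-week library, with 95% intervals from the edgeR fit; filled points have an adjusted p under 0.05. Nat8f5 and Slc23a1 lie left of 0 at the end of TAA, and all 6 intervals of choline against no choline include 0.

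Choline at 1 and 2 weeks is the comparison that asks for the same difference in livers the choice did not use. At 1 week with choline, Nat8f5 stood at 24.1 and 24.9 CPM, within the range without choline. Slc23a1 stood at 36.1 and 40.3 CPM, overlapping the 28.2 and 36.9 CPM without choline. Mmab stood at 18.8 and 20.4 CPM, around the values without choline. The log2 differences were 0.02 ± 0.22 (95% interval -0.46 to 0.49) for Nat8f5, 0.23 ± 0.20 (-0.21 to 0.67) for Slc23a1 and 0.02 ± 0.16 (-0.32 to 0.36) for Mmab.

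At 2 weeks with choline, Nat8f5 stood at 30.8 and 21.5 CPM, Slc23a1 at 37.3 and 28.0 CPM and Mmab at 18.8 and 16.5 CPM. Each range overlapped that without choline. The log2 differences were 0.39 ± 0.22 (95% interval -0.09 to 0.87), -0.01 ± 0.20 (-0.45 to 0.44) and 0.14 ± 0.16 (-0.21 to 0.48) in that order. Averaged over both weeks they were 0.20 ± 0.15 (-0.14 to 0.54), 0.11 ± 0.14 (-0.20 to 0.42) and 0.08 ± 0.11 (-0.17 to 0.32). None of the 3 genes was called by edgeR at either week or in the average, where 0% of all genes were called (154 genes had an unadjusted p under 0.05 at 1 week, 201 at 2 weeks and 198 in the average; DESeq2 called 2, 0 and 3). The choline difference at 2 weeks minus that at 1 week was 0.37 ± 0.31, -0.24 ± 0.29 and 0.12 ± 0.22 (edgeR adjusted p = 1 for each).

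Ordered by mean level, Nat8f5 ran from control (33.7 CPM) through recovery with choline for 2 weeks and 1 week, recovery without it for 1 and 2 weeks, and choline for 4 weeks (18.6 CPM), each overlapping its neighbour, down to TAA (9.59 CPM) and 4 weeks without choline (5.43 CPM), which overlapped neither each other nor the groups above. Slc23a1 ran from control (57.8 CPM) to choline for 4 weeks (41.9 CPM) and 1 week (38.2 CPM), then 3 overlapping groups between 32.6 and 32.9 CPM, TAA (21.6 CPM) and 4 weeks without choline (13.8 CPM). For Mmab the means of 7 groups lay between 16.1 and 19.6 CPM, each overlapping the next, and 4 weeks without choline (7.70 CPM) lay apart.

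Mvk, the neighbour of Mmab, stood at 21.5 and 15.4 CPM in control, 25.7 and 19.1 CPM after TAA, 17.1 and 17.0 CPM at 1 week and 10.7 and 6.95 CPM at 2 weeks without choline. Against TAA, Mvk fell 2.55-fold by 2 weeks (log2 -1.35 ± 0.24, edgeR adjusted p = 0.0063), where Mmab stood at -0.10 ± 0.16; the difference between the genes was not tested. At 4 weeks both were low together without choline, with Mvk at 4.22 and 3.67 CPM, against 10.9 and 13.1 CPM with choline. Pearson's r between Mmab and Mvk (log2 CPM) was 0.872 over 16 libraries, 0.929 without the libraries low in Malat1, and 0.485 over the 12 libraries of other times, a description over libraries that share scaling and treatment. Among 20 sterol genes driven by SREBP-2, 9 were called higher after TAA, beside 10% of all genes, including the epoxidase Sqle (log2 3.07 ± 0.47), and 18 were lower at 2 weeks than at the end of TAA, beside 5.88% of all genes. The sterol median was 0.77 after TAA and -1.55 at 2 weeks against TAA, beside medians of 0.03 and -0.03 over all genes tested. In 18 of these 20 genes, Mvk among them, both 4-week libraries without choline lay below the other 14, beside 5.09% of all genes. The choice of the 3 genes used these libraries. This count, like those of its kind for other lists below, is a description, and no link to the 3 genes is read from it.

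**Figure D3:**
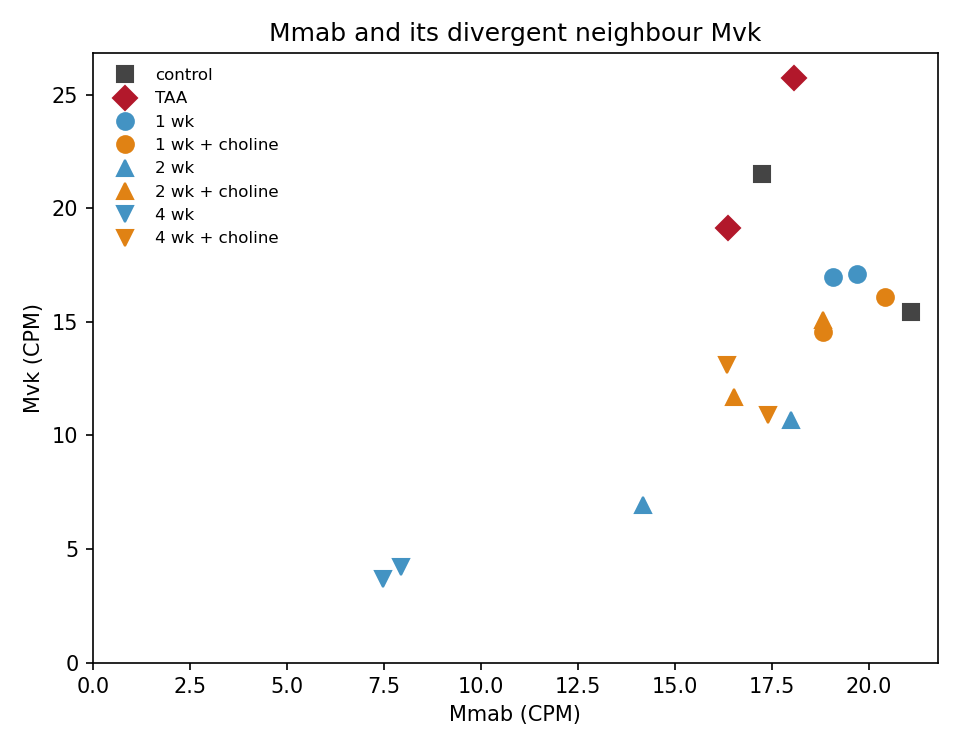
Mmab (horizontal, CPM) against Mvk (vertical, CPM) in the 16 libraries, coloured and shaped by group. The 2 libraries of recovery for 4 weeks without choline lie nearest the origin, and those of 2 weeks without choline are low in Mvk (10.7 and 6.95 CPM) at Mmab levels of 17.99 and 14.2 CPM.

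Of 16 other genes of cobalamin and propionate metabolism tested at the end of TAA, 8 were called lower, 2 higher and, like Mmab, 6 neither, beside 11% of all genes lower and 10% higher. Their median log2 difference was -0.55, beside 0.03 over all genes. Both subunits of propionyl-CoA carboxylase fell, Pcca 2.37-fold and Pccb 2.93-fold, and so did the mutase Mmut (1.91-fold, log2 -0.93 ± 0.16, edgeR adjusted p = 0.00198). By mean TPM, of which 7SL RNA genes took a larger share in control, these falls were smaller. Pcca went from 25.05 to 19.84, Pccb from 35.93 to 26.65 and Mmut from 25.16 to 24.79. Zfp143, a transcription factor whose human counterpart acts with HCFC1 on B12 genes, was 2.57-fold higher (edgeR adjusted p = 0.0038). At 2 weeks without choline Mmut had risen against TAA (0.87 ± 0.15, edgeR adjusted p = 0.00576), as had Pcca (1.06 ± 0.17), and the methionine synthase reductase Mtrr had fallen (-0.98 ± 0.19). At 4 weeks Mmut stood at 144 ± 2.10 CPM (SD, n = 2) without choline and 165 ± 17.8 CPM with it, a ratio of 1.14, and the list's median log2 difference was 0.08. In 0 of the 16 genes did both 4-week libraries without choline lie below the other 14, beside 5.09% of all genes.

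By CPM, some genes of ascorbate synthesis and recycling also fell at the end of TAA. Of 13 ascorbate genes tested besides Slc23a1, 5 were called lower, 1 higher and 7 neither, beside 11% of all genes lower and 10% higher (median log2 -0.25, beside 0.03 over all genes). Gulo stood 2.20-fold lower (log2 -1.14 ± 0.26, edgeR adjusted p = 0.0103), Rgn, the lactonase of the step before, 3.10-fold lower (-1.63 ± 0.26), and the glutaredoxin Glrx 2.32-fold lower, while Ugdh, which makes UDP-glucuronate, was 2.25-fold higher. By mean TPM, Rgn went from 267 to 185, Glrx from 12.15 to 11.04 and Ugdh from 44.9 to 204. In TPM the Gulo groups overlapped, at 72.85 and 71.53 in control and 81.44 and 56.46 after TAA. In CPM the Gulo control libraries stood at 450 and 263, the higher being replicate 1, which is low in Malat1. Rgn rose against TAA at 1 week (1.17 ± 0.25, edgeR adjusted p = 0.0285) and 2 weeks (1.21 ± 0.25, edgeR adjusted p = 0.0121); Gulo did not pass the test (0.27 ± 0.26 and 0.45 ± 0.26). The second ascorbate transporter, Slc23a2, was at log2 0.09 ± 0.27 after TAA (edgeR adjusted p = 0.855). At 4 weeks choline over no choline gave a ratio of 1.20 for both Gulo and Slc23a2. The glucose transporter Slc2a2, of the same list, stood at 130 and 158 CPM without choline and at 235 and 257 CPM with it. Of the 13 genes it was the only 1 with both 4-week libraries without choline below the other 14, beside 5.09% of all genes.

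Among the relatives of Nat8f5 the changes after TAA went both ways. At the end of TAA, 3 of the 6 other tested members were lower, Nat8f1 (5.12-fold, log2 -2.36 ± 0.25), Nat8 (3.37-fold, -1.75 ± 0.25) and Nat8f2 (3.37-fold, -1.75 ± 0.36), and Nat8f4 was higher (0.73 ± 0.21), beside 11% of all genes lower and 10% higher. The list median was -1.75, beside 0.03 over all genes. Against TAA at 2 weeks the same genes stood the other way, Nat8f1 at 1.34 ± 0.24, Nat8 at 0.96 ± 0.25, Nat8f2 at 1.26 ± 0.36 and Nat8f4 at -0.85 ± 0.21, all 4 called. Of all genes 5.13% were called higher and 5.88% lower in this comparison. At 4 weeks choline over no choline gave 1.89 for Nat8, with 14.1 ± 2.87 CPM (SD, n = 2) without choline and 26.7 ± 3.45 CPM with it. Nat8f1 stood at 77.1 to 82.3 CPM without choline and 95.4 to 110 CPM with it, Nat8f4 at 3.45 to 3.79 and 4.33 to 4.41 CPM, and Nat8f2 at 495 to 625 and 432 to 799 CPM, the last with overlapping groups. Of 10 tested genes of the mercapturate route, which include Nat8, 5 were lower after TAA and 1 higher, with a median of -0.41. Of all genes 11% were lower and 10% higher. The 1 higher gene was the glutamyltransferase Ggt1 (3.56 ± 0.68). It was near the floor, at 0.068 to 0.091 CPM in control and 0.85 to 1.11 CPM after TAA. Acy1, Acy3, Lap3 and Ggt6 were lower after TAA by mean CPM. By mean TPM, Acy1 went from 10.1 to 14.24, Acy3 from 22.56 to 24.64, Lap3 from 110.7 to 106.7 and Ggt6 from 6.35 to 5.76. Choline at 1 and 2 weeks called no gene of the ascorbate, cobalamin, Nat8, mercapturate or sterol lists. It called 0% of all genes at either week, so nothing is read from these counts. The sterol median for choline was log2 0.135 at 1 week and 0.505 at 2 weeks, beside -0.00608 and -0.000313 over all genes.

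**Figure D4:**
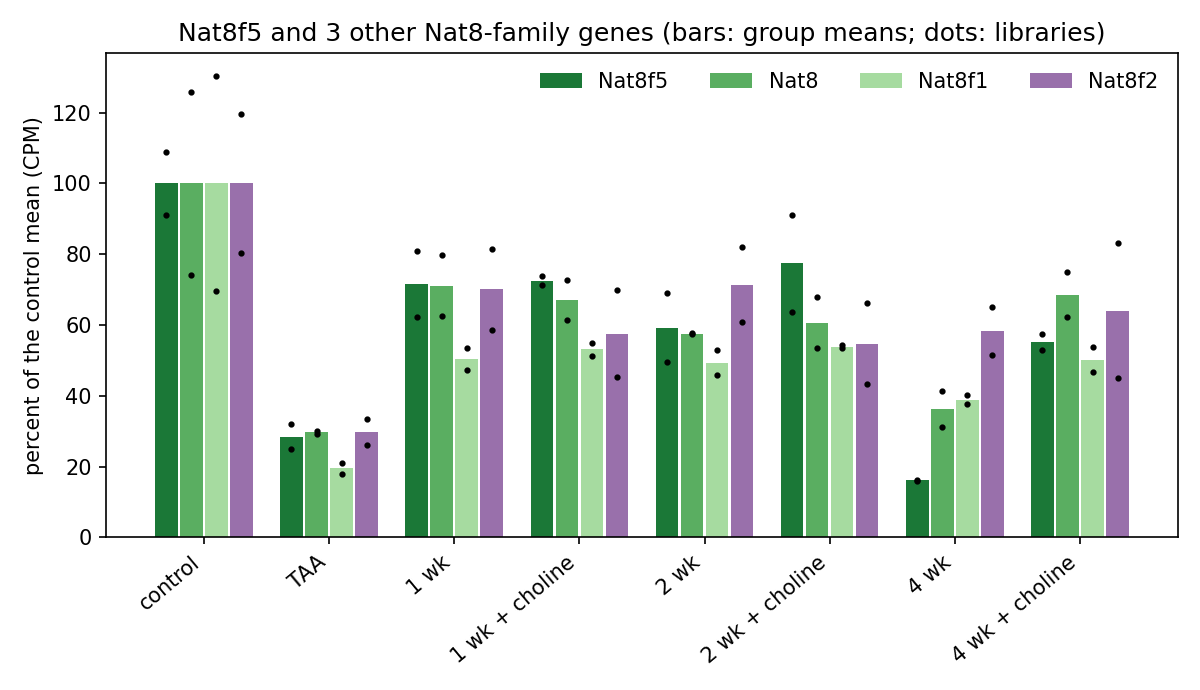
Nat8f5, Nat8, Nat8f1 and Nat8f2 as a percentage of each gene's control mean (CPM) in the 8 groups; bars are means of 2 libraries and dots the libraries. In recovery for 4 weeks without choline Nat8f5 is at 16.1% of its control mean and Nat8 at 36.3%.

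Reads of Nat8f5 can also belong to Nat8f6, a copy on the same strand whose annotated span overlaps it over 3737 bases. Of the distinct 50-base windows of the Nat8f5 transcript (GENCODE M21), 9.28% also occur in Nat8f6, and of 100-base windows 4.17%, so the authors' estimation had to divide those reads. Nat8f6 reached at most 2.53 CPM, and the 2 genes added together stood at 5.63 and 6.13 CPM at 4 weeks without choline and at 19.6 and 19.9 CPM with it, a ratio of 3.36. Slc23a1 (ENSMUSG00000024354, chromosome 18, 35614604 to 35627244, minus strand) overlaps Paip2 on the other strand over 2583 bases. The sources used here do not give the strand setting of the counting. Paip2 stood at 48.1 and 49.2 CPM without choline and at 49.6 and 51.6 CPM with it at 4 weeks. No 50-base window of Mmab occurs in another gene.

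Over the 16 libraries the genes most like each of the 3 were found by Pearson's r of log2 CPM among 9349 genes with a mean of at least 5 CPM; these values describe libraries that share treatment, scaling and the 4-week groups. Nat8f5 was most like Olfml1 (0.927), the cytochrome Cyb5b (0.922), Thrsp (0.92), which is known as a gene switched on by thyroid hormone and carbohydrate feeding, the decarboxylase Ddc (0.909) and Slc23a1 (0.906). Without the 2 libraries low in Malat1 Cyb5b kept rank 2 (0.942), and Olfml1 went to rank 12, Thrsp to 18, Ddc to 22 and Slc23a1 to 25. Among the genes most like Slc23a1 were Tlcd2 (0.957), the polyamine oxidase Paox (0.948) and the tRNA synthetase subunit Farsb (0.943), at ranks 1, 3 and 8 without those libraries. Among the genes most like Mmab were Pstpip2 (0.939), Dhcr7 (0.92), the last enzyme of cholesterol synthesis, the calcium sensor Stim2 (0.892) and the triose kinase Tkfc (0.889), at ranks 5, 2, 16 and 21 without those libraries. Over the 12 libraries of other times, Nat8f5 and Slc23a1 had an r of 0.862, and Mmab had 0.262 with Nat8f5 and 0.357 with Slc23a1. Over the same libraries Nat8f5 had 0.937 with Nat8, 0.938 with Nat8f1 and 0.826 with Nat8f2. Slc23a1 had 0.805 with Gulo and -0.244 with Slc23a2.

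Cell composition was read from summed marker levels, and no marker of the 8 lists but 1 lymphocyte gene fell under the filter on low counts. At the end of TAA 4 of 6 cholangiocyte and 4 of 7 stellate cell markers were called higher, 6 of 7 pericentral hepatocyte markers lower and 1 higher, 4 of 6 periportal, 3 of 8 hepatocyte and 4 of 6 endothelial markers lower, 1 of 7 macrophage markers higher and 0 of 5 lymphocyte markers in either direction, beside 10% of all genes higher and 11% lower. The pericentral sum went from 5412 to 8005 CPM in control to 766 to 935 CPM after TAA, beside the fall of Nat8f5 and Slc23a1. At 4 weeks the choline groups overlapped in the sums of cholangiocyte, stellate cell, macrophage, lymphocyte and hepatocyte markers and were apart in the others. With 2 libraries a group, sums can lie apart by the spread alone. The share of all genes that lie apart was not counted, so nothing is read from it. All 6 endothelial markers together stood at 259 to 279 CPM without choline and 304 to 306 CPM with it, led by Stab2 (89.8 to 102 and 121 to 126 CPM), while Lyve1 went the other way (13.9 to 18.4 and 8.20 to 9.18 CPM). The sum over 6 cholangiocyte markers was 92.1 to 154 CPM without choline and 49.5 to 153 CPM with it, over 7 stellate cell markers 325 to 481 and 281 to 517 CPM, over 7 macrophage markers 95.6 to 160 and 96.6 to 172 CPM, and over 5 of 6 lymphocyte markers 19.1 to 21.2 and 17.1 to 19.4 CPM. Hepatocyte markers summed to 70940 to 75580 and 73030 to 85590 CPM. Pericentral markers summed to 4097 to 4422 and 3822 to 3899 CPM, and periportal markers to 6530 to 6721 and 4756 to 6039 CPM. A sum can follow 1 gene with a large part in it. Without choline at 4 weeks, Spp1 gave 64.2 to 117 CPM of the cholangiocyte sum. In the same group Cyp2e1 gave 3572 to 3716 CPM of the pericentral sum, and Alb 42530 to 43650 CPM of the hepatocyte sum. The periportal sum is led by Pck1, the rate-limiting enzyme of gluconeogenesis, which stood at 4169 and 4413 CPM without choline and 3106 and 2764 CPM with it, against 825 to 1928 CPM in the 12 libraries of other groups. The part of these differences in the levels of the 3 genes was not tested.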

How the data were processed

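RNA from 16 mouse liver samples was sequenced after depletion of ribosomal RNA, with a directional kit, per the labels' protocols. The authors deposited expected counts per gene, not normalised, of which 8.66% have a fractional part, and TPM, scaled by the authors to the same total per library. The submitters' processing notes list STAR 2.7.10b, RSEM 1.3.3, DESeq2 1.36.0 and GRCm38, with no roles; the sources used here give no annotation release, filter or strand setting. Columns that matched no sample numbered 2 and were not used.

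Expected counts were rounded. After filterByExpr and TMM (edgeR 4.0.16, R 4.3.3), 1 robust quasi-likelihood fit over 8 group means and 16 libraries gave two-sided tests in 8 comparisons, Benjamini-Hochberg adjusted over 17292 genes, called under 0.05, and 95% intervals from the fit's degrees of freedom. No 4-week library entered a tested contrast, though all 16 enter the shared spread and scaling. The functions were tested on simulated data. DESeq2 1.42.0 gave an alternative test; the others are in the closing section. Named were the 3 genes, 5 fixed relatives (Mvk, Gulo, Slc23a2, Mmut, Nat8), up to 4 called members per list with the smallest p after TAA, and the 5 most alike genes each, without predicted loci (some named by these rules are not reported here); Mtrr, Paip2, Nat8f6, Slc2a2, Stab2, Lyve1 and Pck1 were taken up after their values were seen. The genes and lists were chosen with earlier results of these data known. Promoters are RefSeq's (2 of the 3 genes used).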

Additional observations from a re-analysis of the deposited data

How the results depend on the processing

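With 2 libraries a group, calls lean on the shared spread. Fits of the compared groups alone left 16 called genes after TAA, 5 at 1 week against TAA and 0 at 2 weeks against control, and gave 7 for choline at 2 weeks and 1 for its average; in them Nat8f5 was at -1.8 after TAA, 1.33 at 1 week and 1.07 at 2 weeks, and Slc23a1 at -1.4 after TAA, all no longer called, while Slc23a1 at 2 weeks against TAA (0.61) was newly called. DESeq2 called 1465 genes at 1 week against TAA, 1517 at 2 weeks against control, and 2, 3 and 1 for choline at 1 week, its average and its week difference, and newly called Slc23a1 at 2 weeks against TAA (0.65) and against control (-0.81) and Nat8f5 against control (-0.75). Without the filter on low counts 1645, 2861 and 2677 genes were called at 1 and 2 weeks against TAA and at 2 weeks against control, 44, 55 and 65 for choline at 1 week, 2 weeks and on average, and 31 for the week difference, with Nat8f5 (-0.75) and Slc23a1 (-0.81) newly called against control. Without both libraries low in Malat1 the counts were 2704 after TAA, 1991 and 3594 at 1 and 2 weeks against TAA and 165 at 2 weeks against control, and no gene of the 3 changed its call. Size factors of DESeq2 and removal of 7SL RNA genes changed no call of the 3 genes.

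The replicate block changed 1 call, Slc23a1 at 2 weeks against TAA (0.60, edgeR adjusted p = 0.0453), and moved the counts to 3937, 781, 2103 and 70 from 3636, 648, 1904 and 69. Same-numbered libraries deviated together (correlation over 0.1) in 8 of 28 pairs of groups, range -0.206 to 0.587, so not every library went best with its own number, and the block is only a number shared.

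Leaving out 1 library at a time, called genes ranged from 1918 (without TAA replicate 1) to 8141 (without control replicate 2) after TAA, from 1 (without 1-week replicate 1) to 2829 (without control replicate 2) at 1 week and from 436 (without 2-week replicate 1) to 4498 (without control replicate 1) at 2 weeks against TAA, from 3 (without 2-week replicate 1) to 7958 (without control replicate 2) at 2 weeks against control, and from 0 to 2 for choline at 2 weeks. Nat8f5 ranged from 1.13 to 1.52 and from 0.80 to 1.29 at 1 and 2 weeks against TAA and from -1.02 to -0.54 against control; Slc23a1 from 0.39 to 0.78, 0.54 to 0.68 and -0.99 to -0.63 in the same comparisons; and Mmab from -0.276 to 0.0658 at 2 weeks against TAA. None of the 3 genes was called for choline in any of these fits. Choline at 1 week ranged from -0.16 to 0.22 for Nat8f5 and from -0.0411 to 0.0737 for Mmab, choline at 2 weeks from -0.23 to 0.19 for Slc23a1 and from -0.0234 to 0.318 for Mmab, the average from -0.00077 to 0.22 for Slc23a1 and from -0.0025 to 0.17 for Mmab, and the week difference from -0.0417 to 0.3 for Mmab. By the deposited TPM, Mmab was at log2 0.79 after TAA and -0.18 at 1 week against TAA, against -0.15 and 0.17 by CPM; rescaled without 7SL RNA genes, a choice made after seeing the data, these were 0.37 and 0.06. The cause of the changes in counts was not tested.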
